A study of Homo sapiens with 24 samples.

Results

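The response of vector control (VC) cells to low oxygen was described from 6 of the 24 RNA-seq libraries of the series: the 3 libraries titled hypoxia VC and the 3 titled normoxia VC, chosen by title. All cells were ARPE-19, a spontaneously arising, immortal human retinal pigment epithelium (RPE) line. VC cells carry a control construct stably introduced by retroviral transduction, and all of the lines had grown for 2 weeks in ordinary air with carbon dioxide before the experiment. Hypoxia VC cells then spent 4 h at 0.5% oxygen and 37 °C in a chamber, and normoxia VC cells stayed in the incubator. The untransduced parent line (WT) and cells overexpressing epithelial membrane protein 2 (OE, given as OE2 in replicates 1 and 2 and as OE1 in replicate 3) had 3 libraries in each condition and served only to ask where the VC response differed. The EMP2 knockdown libraries entered the shared estimate of spread only.

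Values are CPM, read counts scaled to the library size with TMM factors. Of 60623 genes in the table, 24873 had at least 10 counts over the 24 libraries and were tested. A gene was called when edgeR's quasi-likelihood test gave a Benjamini-Hochberg adjusted p under 0.01 over all tested genes. The 3 replicates of a group are not stated to be separate cultures, so the spread behind each p-value may be technical. VC cells are described by the sources as a stably transduced line, and whether they are a pool or a clone is not given in the sources used here. In these bulk libraries, fewer cells that express a gene and less RNA per cell cannot be told apart.

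Cells sense oxygen through the prolyl hydroxylases EGLN1, EGLN2 and EGLN3, which use oxygen to mark the alpha subunits of hypoxia-inducible factor (HIF). The marked subunits are recognised by VHL and degraded. When oxygen falls, the alpha subunits persist, pair with ARNT and bind short DNA sites near genes for glucose use, blood vessel growth, pH control, collagen processing and mitophagy. In the retina, the pigment epithelium is a known source of VEGFA, the growth factor behind much pathological vessel growth. Low oxygen also stresses oxidative protein folding in the endoplasmic reticulum and electron transport in mitochondria.

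The libraries are called hypoxia VC 1 to 3 and normoxia VC 1 to 3 by replicate number. They held 13940314 to 18418463 counts in genes, with 84.8 to 85.9% of reads mapped uniquely, so that 3 counts, the limit a count of 0 allows, corresponded to 0.163 to 0.215 CPM for counting error only. The first principal component of the 6 libraries held 77.3% of the variance and separated hypoxia VC and normoxia VC. The second held 8.99% and set replicate 3 of both conditions apart from replicates 1 and 2. Of the 14 RPE markers, all were tested. RPE65, the visual cycle isomerase, had 0, 0 and 0 counts in hypoxia VC and 2, 5 and 3 in normoxia VC. RLBP1, a retinoid-binding protein, had 177 to 250 counts in hypoxia VC and 235 to 323 in normoxia VC. Of these defining markers, RPE65 was thus at or near 0 in both conditions. Summed over each list, RPE markers were at 1769 to 1929 CPM in hypoxia VC and 1582 to 1680 CPM in normoxia VC. Endothelial markers summed to 87.7 to 93.0 CPM in hypoxia VC and 62.9 to 69.1 CPM in normoxia VC, blood and macrophage markers to 4.85 to 5.81 CPM in hypoxia VC and 7.21 to 9.33 CPM in normoxia VC.

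Hypoxia VC differed from normoxia VC at 5228 genes. Of the tested genes, 2564 were higher (10.3%) and 2664 were lower (10.7%) in hypoxia VC, with a median log2 fold change of 0.67 among the higher genes and -0.67 among the lower ones. At least 2-fold changes were found for 706 higher and 669 lower genes, and at least 4-fold changes for 128 higher and 159 lower genes. The hypoxia VC and normoxia VC libraries did not overlap for 43.0% of all tested genes, and for 5215 of the 5228 called genes. The median log2 fold change of all tested genes was -0.01. Among protein-coding genes, 2356 of 15315 were higher and 2432 were lower, against 140 higher and 196 lower of 5732 long noncoding RNAs.

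Among called genes with at least 10 CPM and no overlap between groups, the largest rise was that of NDRG1, a stress-response gene widely used as a marker of hypoxia. It had 3220.3, 3168 and 3126 CPM in hypoxia VC, against 171, 151 and 177 CPM in normoxia VC. The 3 hypoxia VC libraries lay close together and far above all normoxia VC libraries (log2 fold change 4.25 ± 0.09 (SE), adjusted p 3.9e-24). HMOX1, the heme oxygenase that degrades heme to iron, biliverdin and carbon monoxide (chr22:35380361-35394214, plus strand, GRCh38), had 1956, 2030.1 and 1979.6 CPM in hypoxia VC, against 176, 151 and 161 CPM in normoxia VC. Its groups did not overlap either (log2 fold change 3.61 ± 0.13 (SE), adjusted p 1.2e-16). TREM1, a surface receptor best known from myeloid cells, was low in normoxia VC and had 19.6, 18.002 and 19.5 CPM in hypoxia VC, against 1.08, 0.953 and 1.52 CPM in normoxia VC (log2 fold change 4.01 ± 0.28 (SE), adjusted p 1.2e-12). MMP1, the interstitial collagenase, had 10.2, 13.97 and 12.9 CPM in hypoxia VC, against 0.766, 0.953 and 1.26 CPM in normoxia VC (log2 fold change 3.64 ± 0.64 (SE), adjusted p 2.4e-04). Its call was lost when replicate 3 of all groups was left out (log2 3.81). The gene lies opposite the pseudogene WTAPP1, and whether reads were counted by strand is not given in the sources used here. All 3 hypoxia VC libraries exceeded all 3 normoxia VC libraries for each of these genes, as the choice of genes required.

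The other rises of this size were in genes of varied function. DEPP1, a FOXO target linked to autophagy, rose by a log2 fold change of 3.14 ± 0.12. MLKL, the pseudokinase that executes necroptosis, rose by 2.90 ± 0.11, and CLIC2, an intracellular chloride channel protein, by 2.94 ± 0.23. ISM2, a secreted isthmin, rose by 2.90 ± 0.25, and KIAA1549L by 2.86 ± 0.20. MICB, a stress-induced ligand of the NKG2D receptor of lymphocytes, had 45.3, 45.3 and 48.4 CPM in hypoxia VC, against 4.66, 5.21 and 6.54 CPM in normoxia VC. No library of one condition reached the range of the other, as the choice of genes required (log2 fold change 3.08 ± 0.16 (SE), adjusted p 3.4e-15). MICB shares sequence with MICA, and its reads are uncertain on that account.

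Among called genes with at least 10 CPM and no overlap, LINC02009, a long noncoding RNA, had the largest fall. It had 4.17, 3.86 and 3.12 CPM in hypoxia VC, against 50.995, 55.3 and 55.6 CPM in normoxia VC, more than a 10-fold drop in every pair of libraries (log2 fold change -3.85 ± 0.12 (SE), adjusted p 7.0e-20). ASIC2, an acid-sensing ion channel subunit, had 1.31, 0.681 and 0.921 CPM in hypoxia VC, against 12.3, 12.9 and 9.91 CPM in normoxia VC (log2 fold change -3.59 ± 0.23 (SE), adjusted p 6.7e-13). RGS7BP, which anchors regulators of G-protein signalling at the membrane, fell by 3.28 on the log2 scale, LINC00968 fell by 3.24, PRR15 fell by 3.22 and the ubiquitin ligase TRIM15 fell by 2.89. TNFSF10, the death ligand TRAIL, had 3.61, 2.33 and 2.55 CPM in hypoxia VC, against 18.6, 23.3 and 21.02 CPM in normoxia VC (log2 fold change -2.89 ± 0.24 (SE), adjusted p 1.6e-10). DIO2, the deiodinase that activates thyroid hormone, had 40.5, 30.5 and 37.5 CPM in hypoxia VC, against 193, 222 and 192 CPM in normoxia VC (log2 fold change -2.49 ± 0.09 (SE), adjusted p 3.6e-19). In both genes every hypoxia VC library lay below every normoxia VC library, as the choice of genes required. WNT2B, a secreted Wnt ligand, fell by 2.56 on the log2 scale, GBP4, an interferon-inducible GTPase, fell by 2.60, the kinase gene ALPK2 fell by 2.43, and ANKRD1, a mechanosensitive nuclear ankyrin repeat protein, fell by 2.66.

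**Figure D1:**
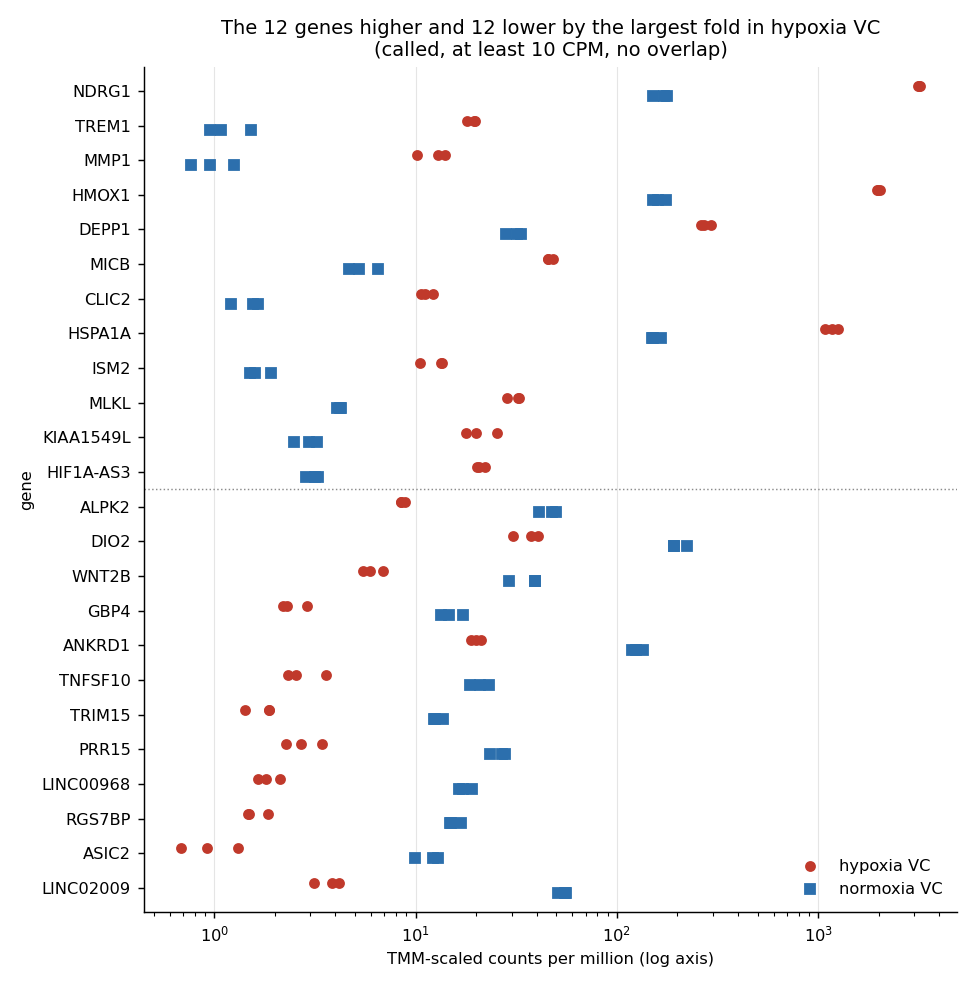
TMM-scaled CPM on a log axis in each of the 3 hypoxia VC libraries (red circles) and 3 normoxia VC libraries (blue squares) for the 12 genes with the largest rise and the 12 with the largest fall among called genes with at least 10 CPM and no overlap, drawn above and below the dotted line. The circles and squares do not overlap for any of the 24 genes, as the choice of genes required.

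Gene lists drawn from background knowledge, but chosen with earlier results of these data known, were read against the shares called over all tested genes. These shares were 10.3% higher and 10.7% lower. Among protein-coding genes alone, they were 15.4% higher and 15.9% lower. Counts of list members called are descriptions, not tests. The plot of list members called puts chaperones, HIF targets, demethylases, glycolysis, the unfolded protein response, metallothioneins and glycogen metabolism far to the higher side, and the mitochondrially encoded protein genes, DNA replication genes, small nucleolar RNA host genes and TGF-beta and BMP genes to the lower side. Few ribosomal protein and replication-dependent histone genes were called.

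**Figure D2:**
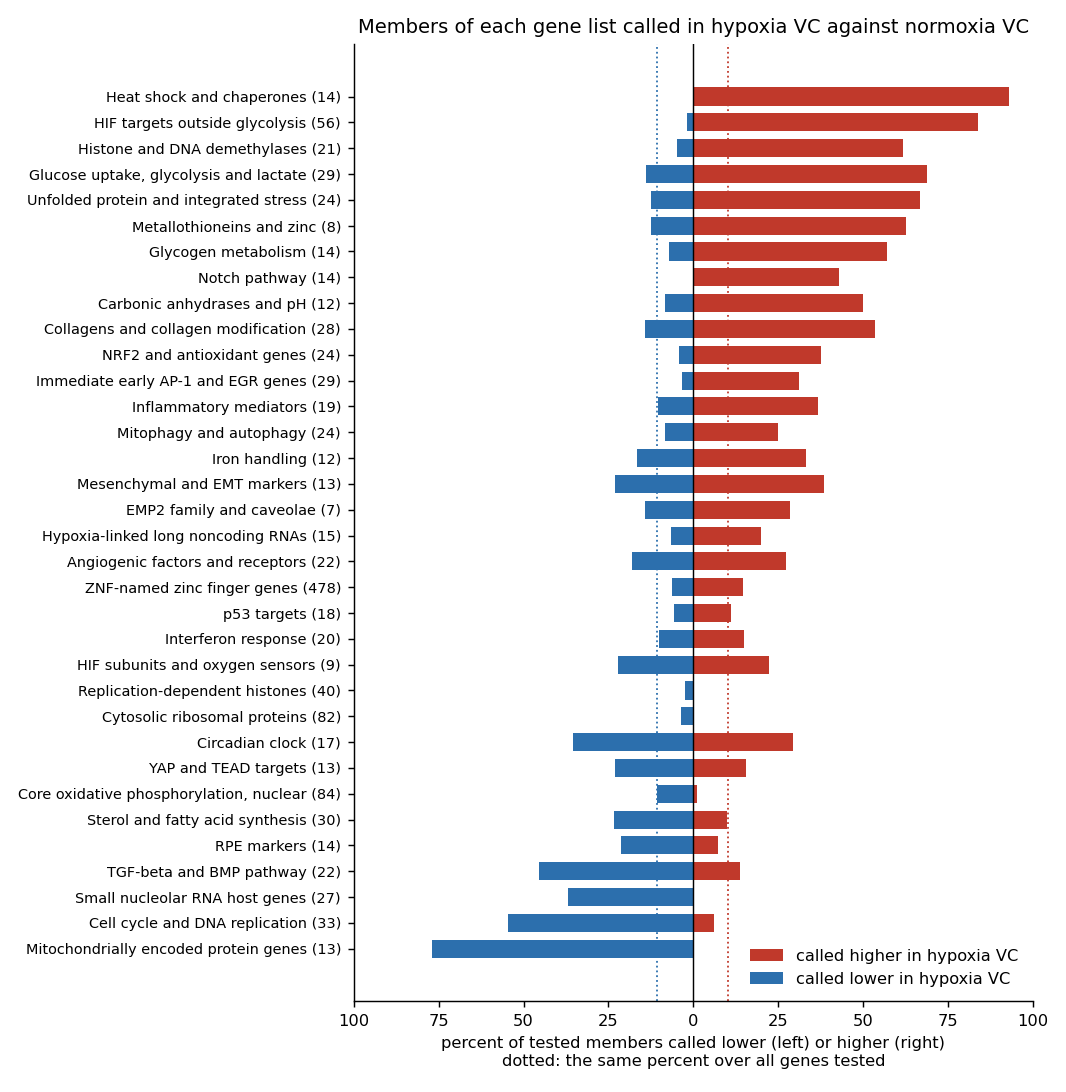
Percent of the tested members of each gene list called higher (red, right) or lower (blue, left) in hypoxia VC against normoxia VC, with the number of tested members in brackets and dotted lines at the 10.3% and 10.7% of all tested genes. Heat shock genes (13 of 14 higher) and HIF targets (47 of 56 higher) lead at the top, and the mitochondrially encoded protein genes (10 of 13 lower) stand at the bottom.

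The oxygen-sensing machinery itself moved in both directions: of 9 tested members, 2 were higher, 2 were lower and 5 were not called, and HIF3A was not tested. HIF1A, the oxygen-regulated subunit of HIF-1 (chr14:61695513-61748259, plus strand, GRCh38), had 221, 217 and 233 CPM in hypoxia VC, against 507, 548 and 540.2 CPM in normoxia VC. Its RNA was lower in every hypoxia VC library, well below the normoxia VC level (log2 fold change -1.25 ± 0.08 (SE), adjusted p 2.2e-13). HIF1A-AS3, a long noncoding RNA whose gene overlaps the end of HIF1A on the opposite strand, had 20.6, 20.3 and 22.2 CPM in hypoxia VC, against 2.87, 3.26 and 3.17 CPM in normoxia VC and moved the other way (log2 fold change 2.76 ± 0.23 (SE), adjusted p 8.5e-09). Where the counting ignores strand, reads of the overlapping stretch cannot be told apart.

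EGLN3, the hypoxia-inducible prolyl hydroxylase, had 174, 180.5 and 158 CPM in hypoxia VC, against 24.7, 25.02 and 29.1 CPM in normoxia VC. It rose in all 3 hypoxia VC libraries (log2 fold change 2.70 ± 0.13 (SE), adjusted p 5.8e-15). EGLN1, the main HIF prolyl hydroxylase, had 91.9, 83.6 and 48.6 CPM in hypoxia VC, against 54.8, 51.4 and 35.2 CPM in normoxia VC. Each replicate was higher in hypoxia than in normoxia, but hypoxia VC 3 lay below normoxia VC 1 and normoxia VC 2, so the groups overlapped and the gene was not called (log2 fold change 0.67 ± 0.33 (SE), adjusted p 0.156). With the replicate number as a block among the 6 VC libraries alone, it was called at a log2 fold change of 0.66. HIF1AN, the asparaginyl hydroxylase that blocks HIF coactivators, was higher by 0.36 ± 0.07, and ARNT2, a partner subunit related to ARNT, was lower (-1.38 ± 0.11). The remaining members were not called: EPAS1, the HIF-2 alpha subunit, had a log2 fold change of -0.03 ± 0.09, VHL -0.03 ± 0.09, ARNT -0.06 ± 0.07 and EGLN2 0.11 ± 0.16.

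Known HIF targets outside glycolysis rose together. Of 56 tested, 47 were higher and 1 was lower, against background shares of 10.3% and 10.7%, and their median log2 fold change was 1.24 against -0.01 for all tested genes. By role, CA9 and CA12, the membrane carbonic anhydrases that acidify the space outside the cell, rose by 2.09 ± 0.10 and 1.52 ± 0.12. CA9 had 159, 153 and 157 CPM in hypoxia VC, against 35.4, 39.3 and 35.2 CPM in normoxia VC, with no overlap. The mitophagy receptors BNIP3 and BNIP3L rose by 0.88 ± 0.08 and 1.07 ± 0.09. The feedback and signalling genes BHLHE40, a transcriptional repressor, and DDIT4, an inhibitor of mTORC1, rose by 1.03 ± 0.08 and 1.44 ± 0.09. The vasodilator peptide gene ADM rose by 1.48 ± 0.09, STC1, a secreted stanniocalcin, by 1.56 ± 0.13, and CXCR4, a chemokine receptor, by 1.72 ± 0.10. HILPDA, a lipid droplet protein, rose by 1.41 ± 0.12, and ERO1A, the oxidase of the endoplasmic reticulum, by 1.55 ± 0.09. TMEM45A had 45.7, 44.4 and 43.3 CPM in hypoxia VC, against 7.98, 11.98 and 8.26 CPM in normoxia VC, and ZNF395 137, 127 and 127 CPM in hypoxia VC, against 38.5, 35.5 and 33.7 CPM in normoxia VC. Every hypoxia VC library exceeded every normoxia VC library for both.

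The exceptions within the list were few. The transferrin receptor TFRC, which imports iron, was the 1 lower member. It had 139, 139.9 and 154 CPM in hypoxia VC, against 725, 714 and 761 CPM in normoxia VC, and the groups were far apart (log2 fold change -2.35 ± 0.09 (SE), adjusted p 9.7e-19). The 8 members tested without a call were EGLN1, BHLHE41, EFNA3, CITED2, SPAG4, MIR210HG, SAP30 and RAB20, with log2 fold changes of -0.38 to 0.67. MIR210HG, the host gene of the hypoxia-induced miR-210, was among them at -0.38 ± 0.12, as was CITED2, a HIF coactivator competitor, at -0.02 ± 0.12. The remaining 3 members of the 59 listed fell under the count filter.

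VEGFA, the vascular endothelial growth factor at the centre of the study, rose. It had 462, 418 and 459 CPM in hypoxia VC, against 182, 169 and 172 CPM in normoxia VC, so that each hypoxia VC library exceeded each normoxia VC library by more than 2-fold (log2 fold change 1.36 ± 0.09 (SE), adjusted p 4.7e-13). The wider set of angiogenic factors and receptors did not move as a group: 6 of 22 tested were higher and 4 were lower, with a median log2 fold change of 0.01. Among ligands, PGF, placental growth factor, had 31.3, 30.2 and 28.6 CPM in hypoxia VC, against 5.43, 5.72 and 5.68 CPM in normoxia VC (log2 fold change 2.42 ± 0.18 (SE), adjusted p 1.3e-11), and ANGPTL4, a lipoprotein lipase inhibitor, rose by 1.32 ± 0.18. PDGFA fell by 1.22, FGF2 fell by 1.11 and THBS1, an angiogenesis inhibitor, fell by 0.34 on the log2 scale (not past the threshold without hypoxia VC 1, hypoxia VC 3 or normoxia VC 1, log2 -0.33 to -0.29). EDN2, an endothelin, had 0.373, 0.227 and 0.425 CPM in hypoxia VC, against 1.08, 1.60 and 1.65 CPM in normoxia VC and a log2 fold change of -2.09 ± 0.46 (not past the threshold without hypoxia VC 2, log2 -1.85). Among receptors, TIE1 rose by 1.45 ± 0.14, NRP1, a VEGF coreceptor, by 0.39 ± 0.07 and FGFR1 by 0.50 ± 0.10, while the VEGF receptor genes FLT1 and KDR were at or near 0 in these cells and were not called. TIE1 and ROBO4 (0.91 ± 0.11) are also endothelial markers, and the other 9 tested endothelial markers were not called, with PECAM1, CDH5 and VWF near 0. The part of other cells in these rises was not tested.

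Genes of glucose use rose across most of the pathway. Of 29 tested genes of glucose uptake, glycolysis and lactate handling, 20 were higher and 4 were lower, with a median log2 fold change of 0.61. At entry, the transporter SLC2A1 rose by 1.02 ± 0.09 and the hexokinases HK1 and HK2 by 1.05 ± 0.07 and 1.23 ± 0.09. The regulatory enzyme PFKFB4, which makes the activator of phosphofructokinase, had 193, 198 and 211 CPM in hypoxia VC, against 47.9, 45.7 and 49.97 CPM in normoxia VC (log2 fold change 2.07 ± 0.10 (SE), adjusted p 3.0e-16), and its relative PFKFB3 rose by 1.25 ± 0.07. The groups did not overlap for either. Further down, GPI rose by 1.27 ± 0.08, PGK1 by 1.25 ± 0.08, ENO2 by 1.35 ± 0.08 and LDHA, which makes lactate, by 0.91 ± 0.06. GAPDH, often taken as a constant reference, had 3614, 3308 and 3298 CPM in hypoxia VC, against 2456, 2424 and 2350.0 CPM in normoxia VC (log2 fold change 0.50 ± 0.07 (SE), adjusted p 4.3e-07). The 4 lower members were PFKFB2 (-0.68 ± 0.10), the muscle phosphofructokinase PFKM (-0.51 ± 0.08), LDHB (-0.80 ± 0.22) and PDK1 (-0.82 ± 0.09). LDHB had 3.48, 4.15 and 3.40 CPM in hypoxia VC, against 6.32, 6.07 and 7.01 CPM in normoxia VC and was not past the threshold without any 1 of the 6 libraries, log2 -0.90 to -0.73. PDK1, the kinase that shuts pyruvate out of mitochondria and a HIF target in other cells, had 36.2, 40.5 and 40.1 CPM in hypoxia VC, against 64.1, 67.6 and 74.8 CPM in normoxia VC and was lower in all 3 hypoxia VC libraries.

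Glycogen metabolism followed the same direction, with 8 of 14 genes higher, 1 lower and a median of 0.51. GBE1, the branching enzyme, had 378, 377 and 369 CPM in hypoxia VC, against 97.5, 100.0 and 98.2 CPM in normoxia VC (log2 fold change 1.93 ± 0.07 (SE), adjusted p 3.6e-19). GYS1, the synthase, rose by 1.01 ± 0.11, UGP2, which makes the UDP-glucose it uses, by 0.94 ± 0.08, PGM1 by 0.76 ± 0.06 and PPP1R3B, a subunit that directs protein phosphatase to glycogen, by 0.79 ± 0.07.

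Chaperone genes rose in the endoplasmic reticulum and in the cytosol. Of 24 genes of the unfolded protein and integrated stress responses, 16 were higher and 3 were lower, with a median of 0.78, and of 14 heat shock and chaperone genes, 13 were higher, with a median of 1.19 and a positive log2 fold change in all 14. HSPA5, the main chaperone of the endoplasmic reticulum, had 3737, 3443 and 3600.0 CPM in hypoxia VC, against 1266, 1170.0 and 1177 CPM in normoxia VC (log2 fold change 1.58 ± 0.07 (SE), adjusted p 6.3e-17). HSP90B1, its partner HSP90 form, had 3616, 3409.8 and 3552 CPM in hypoxia VC, against 1159.7, 1090.3 and 1122 CPM in normoxia VC (log2 fold change 1.65 ± 0.07 (SE), adjusted p 6.7e-17). In both, the hypoxia VC libraries were higher and the groups did not overlap. PDIA4, a disulfide isomerase, rose by 1.72 ± 0.07, DNAJC3, a cochaperone that restrains PERK, by 1.61 ± 0.07, SDF2L1 by 1.59 ± 0.18 and SEL1L, a component of the degradation pathway of misfolded proteins, by 1.37 ± 0.07.

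Other members of the unfolded protein and integrated stress list are given next. CHAC1, a glutathione-degrading enzyme induced through ATF4, had 3.11, 3.18 and 3.26 CPM in hypoxia VC, against 0.894, 0.902 and 0.661 CPM in normoxia VC (log2 fold change 1.94 ± 0.37 (SE), adjusted p 1.1e-04), TRIB3, a pseudokinase also induced through ATF4, rose by 0.79 ± 0.16 and DDIT3 by 0.79 ± 0.11. ATF4 itself (0.18 ± 0.11) and ASNS (0.01 ± 0.53) were not called. The serine synthesis genes PSAT1 (-0.82 ± 0.09) and PHGDH (-0.41 ± 0.09) were lower, as was EDEM1 (-0.60 ± 0.08), a mannosidase-like protein that hands misfolded glycoproteins to degradation. Among cytosolic and mitochondrial chaperones, HSPA1A, the inducible HSP70, had 1086, 1177 and 1261 CPM in hypoxia VC, against 150.4, 150.3 and 165 CPM in normoxia VC (log2 fold change 2.92 ± 0.19 (SE), adjusted p 3.3e-10). HSPA1B encodes a near-identical protein and rose by 1.63 ± 0.15, so the division of reads between the pair is uncertain. HSPD1, the mitochondrial HSP60, had 1394, 1386 and 1351 CPM in hypoxia VC, against 523, 504 and 529 CPM in normoxia VC (log2 fold change 1.41 ± 0.06 (SE), adjusted p 1.6e-16). HSP90AA1 rose by 1.27 ± 0.06, HSPH1 by 1.26 ± 0.07, the small heat shock protein HSPB1 by 1.47 ± 0.22 and the cochaperone BAG3 by 1.40 ± 0.12. HSF1, the transcription factor of the heat shock response, was the member not called (0.24 ± 0.16).

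**Figure D3:**
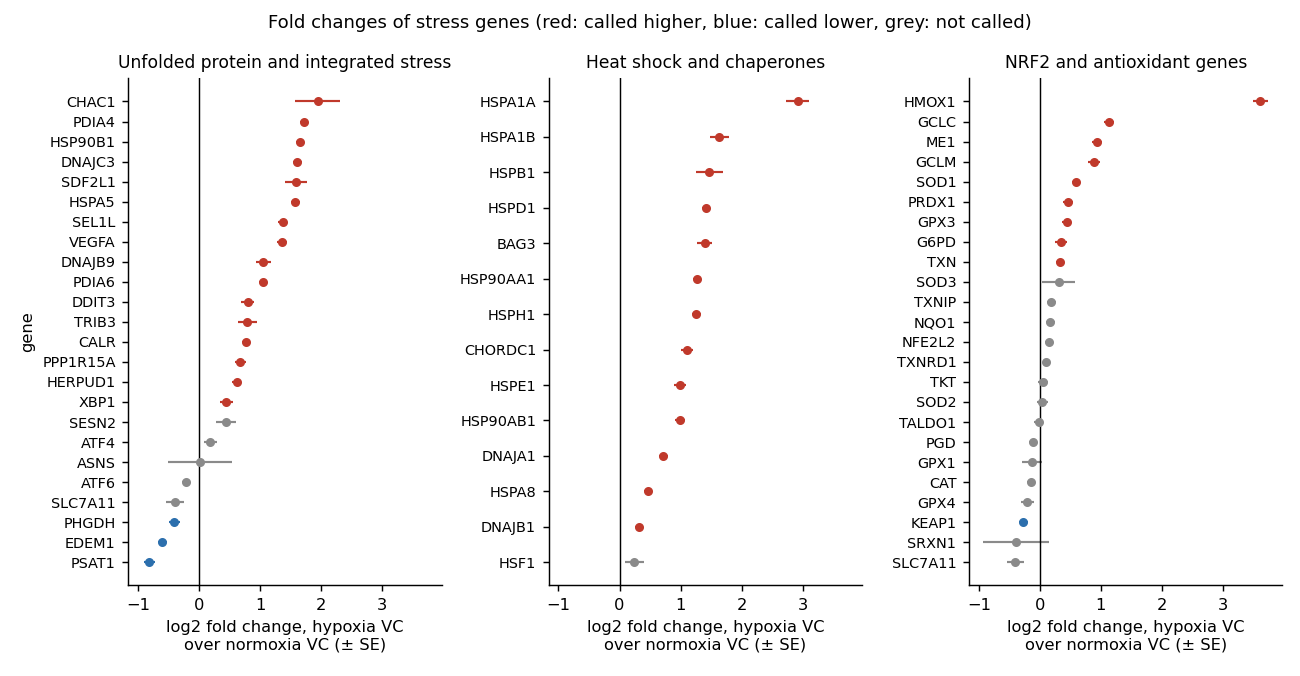
Log2 fold change of hypoxia VC over normoxia VC with its SE (n = 3 each) for every tested member of the unfolded protein, heat shock and NRF2 lists, red where called higher, blue where called lower and grey where not called. All heat shock genes lie to the right of 0, and in the NRF2 panel HMOX1 at 3.61 stands apart from the other members, the next of which is GCLC at 1.13.

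Promoter letters were compared between the groups of genes. RefSeq promoters of GRCh38.p14 (250 bases before to 50 after the annotated start) were found for 13098 of the 24873 tested genes. They were matched by Ensembl identifier, or by symbol where that gave none. A motif match describes letters only, not a bound site. The core of the HIF binding site, ACGTG or GCGTG on either strand, was present in 62.2% of promoters of higher genes (1218 of 1958), 63.3% of those of lower genes (1270 of 2007) and 59.9% of all (7841 of 13098). Among genes that rose at least 4-fold it was present in 43.1% (31 of 72). Called HIF targets held it in 80.6% (29 of 36) and called glycolysis genes in 77.8% (14 of 18). The matches include those inside CACGTG, an E-box bound by other factors too, which was present in 10.1% of promoters of higher genes, 11.3% of those of lower genes and 9.51% of all. Mean promoter GC was 65.0% for higher genes, 64.5% for lower genes and 63.3% for all.

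After the chaperone genes were seen to rise, the ER stress element, CCAAT followed at its fixed spacing by CCACG, on either strand, was searched in the same promoters. It was found in 14 of 13098 (0.107%). Of those genes, 10 were higher and the other 4 were not called, where 14.9% of all genes with a promoter were higher. The higher ones were ERO1B, SERP1, CANX, HSPA5, TRIM5, HSP90B1, CALR, XBP1, ALG12 and CRELD2, most of them genes of protein folding and glycosylation. The heat shock element, GAA, TTC and GAA each parted by NN, was found in 48 promoters (0.366%), of which 17 belonged to higher and 4 to lower genes, where 14.9% and 15.3% of all genes with a promoter were higher and lower. The unfolded protein genes called higher held the HIF core in 14 of 15 promoters, and the last letters of the ER stress element can overlap that core, while the heat shock genes called higher held it in 6 of 13. The E-box was present in 3 of 15 promoters of the unfolded protein genes and 2 of 13 of the heat shock genes. Mean promoter GC was 66.2% and 64.1%.

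5 promoters are shown 5′ to 3′ on the gene's strand because they carry letters counted above beside large rises. Capitals mark the HIF core in MICB, PFKFB4 and GBE1 and the ER stress element in HSPA5 and HSP90B1 (RefSeq, GRCh38.p14, 300 bases each). MICB (chr6:31497895-31498194, plus strand) has the HIF core starting at -204 and -123 from the start site. MLKL, ISM2 and HIF1A-AS3 hold it too. It was not found in the windows of TREM1, DEPP1, CLIC2, HSPA1A, TNFSF15 and the HIF targets EGLN3 and TMEM45A. PFKFB4 (chr3:48556754-48557053, minus strand) has it at -166 and GBE1 (chr3:81761596-81761895, minus strand) at -156, -112 and 13. HSPA5 (chr9:125241294-125241593, minus strand) has the ER stress element at -66 and HSP90B1 (chr12:103930160-103930459, plus strand) at -194 and -89. HSP90B1 also has HIF core matches, not in capitals as such, at -248, -247, -179 and -90, of which those at -179 and -90 overlap its ER stress elements. PFKFB4, GBE1, HSPA5 and HSP90B1 were chosen after their values were seen.
MICB: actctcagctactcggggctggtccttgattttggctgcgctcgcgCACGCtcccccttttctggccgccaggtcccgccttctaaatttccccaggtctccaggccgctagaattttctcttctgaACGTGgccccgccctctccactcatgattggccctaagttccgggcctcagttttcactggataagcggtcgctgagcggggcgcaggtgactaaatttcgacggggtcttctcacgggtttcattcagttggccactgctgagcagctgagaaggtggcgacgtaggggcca
PFKFB4: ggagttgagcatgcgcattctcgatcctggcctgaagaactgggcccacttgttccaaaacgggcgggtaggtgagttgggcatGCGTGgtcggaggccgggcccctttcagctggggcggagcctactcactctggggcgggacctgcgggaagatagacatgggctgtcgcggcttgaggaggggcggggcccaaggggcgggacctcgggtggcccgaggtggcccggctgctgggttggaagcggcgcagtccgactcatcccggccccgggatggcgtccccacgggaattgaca
GBE1: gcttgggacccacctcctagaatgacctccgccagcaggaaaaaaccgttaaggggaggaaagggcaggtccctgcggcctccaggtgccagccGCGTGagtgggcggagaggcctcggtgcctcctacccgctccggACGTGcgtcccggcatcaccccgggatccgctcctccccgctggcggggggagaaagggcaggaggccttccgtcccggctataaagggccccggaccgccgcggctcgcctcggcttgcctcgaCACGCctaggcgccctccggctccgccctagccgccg
HSPA5: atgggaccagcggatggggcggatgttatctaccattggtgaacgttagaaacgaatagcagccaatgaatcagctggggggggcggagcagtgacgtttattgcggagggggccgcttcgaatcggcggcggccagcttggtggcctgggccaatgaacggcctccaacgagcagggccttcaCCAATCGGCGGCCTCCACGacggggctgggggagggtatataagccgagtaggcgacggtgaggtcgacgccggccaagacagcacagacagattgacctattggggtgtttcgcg
HSP90B1: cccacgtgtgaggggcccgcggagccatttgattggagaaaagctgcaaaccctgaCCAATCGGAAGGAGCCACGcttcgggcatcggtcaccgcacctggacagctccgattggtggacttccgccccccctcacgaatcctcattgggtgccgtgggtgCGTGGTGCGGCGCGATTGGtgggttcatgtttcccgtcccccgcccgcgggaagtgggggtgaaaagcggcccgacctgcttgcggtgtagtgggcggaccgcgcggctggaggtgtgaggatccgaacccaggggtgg

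Antioxidant genes other than HMOX1 changed less than HMOX1 did. Of 24 NRF2 and antioxidant genes, 9 were higher, 1 was lower and 14 were not called, with a median log2 fold change of 0.16. The glutathione synthesis subunits GCLC and GCLM rose by 1.13 ± 0.08 and 0.88 ± 0.10, ME1, which makes NADPH, by 0.93 ± 0.08 and SOD1 by 0.59 ± 0.07. NQO1 (0.17 ± 0.07) and TXNRD1 (0.10 ± 0.06), also targets of NRF2, were not called, nor was SLC7A11, the cystine importer (-0.40 ± 0.14). KEAP1, the inhibitor of NRF2, was the lower member at -0.27 ± 0.08, not past the threshold without any 1 of the 6 libraries, log2 -0.29 to -0.25. Of 12 tested iron genes, 4 were higher and 2 were lower. Beside HMOX1 and TFRC, the ferroxidase ceruloplasmin, CP, had 427, 399 and 454 CPM in hypoxia VC, against 127, 121 and 125 CPM in normoxia VC (log2 fold change 1.78 ± 0.12 (SE), adjusted p 3.9e-11), STEAP3, a ferrireductase, rose by 1.07 ± 0.08, and the iron exporter gene SLC40A1 was at 0.88 ± 0.23 (not past the threshold without hypoxia VC 1, hypoxia VC 3, normoxia VC 1 or normoxia VC 3, log2 0.80 to 0.90). The importer SLC11A2 was lower (-0.44 ± 0.08). FTH1 (0.03 ± 0.27) and FTL (0.23 ± 0.15), the ferritin subunits, are controlled mainly at translation and were not called.

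Of 8 tested metallothionein and zinc genes, 5 were higher and 1 was lower. The metal-binding MT1X had 34.5, 37.4 and 31.2 CPM in hypoxia VC, against 9.51, 7.32 and 8.59 CPM in normoxia VC (log2 fold change 2.03 ± 0.12 (SE), adjusted p 1.0e-13), MT1F rose by 1.76 ± 0.18, MT1E by 1.36 ± 0.10 and MT2A by 1.10 ± 0.15. These genes are close paralogs, so reads may be shared between them. The zinc-sensing factor MTF1 was higher at 0.39 ± 0.09 (not past the threshold without normoxia VC 1, log2 0.37), and the importer SLC39A10 was lower at -0.37 ± 0.09 (not past the threshold without hypoxia VC 3, normoxia VC 2 or normoxia VC 3, log2 -0.35 to -0.29). pH genes were higher in 6 of 12 cases, with CA2 at 1.70 ± 0.16 and the bicarbonate transporter SLC4A4 at 0.87 ± 0.11, and lower for CA11 (-0.76 ± 0.12), a carbonic anhydrase-related protein without activity.

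Of 28 genes of collagens and collagen modification, 15 were higher and 4 were lower, with a median of 0.58. The prolyl 4-hydroxylase subunits P4HA1 and P4HA2 had 684, 682 and 688 CPM in hypoxia VC, against 190.2, 194 and 194 CPM in normoxia VC, and 448, 449.6 and 457 CPM in hypoxia VC, against 118, 118 and 118 CPM in normoxia VC. Both rose with no overlap (1.83 ± 0.06 and 1.94 ± 0.07 log2). The lysyl hydroxylases PLOD1, PLOD2 and PLOD3 rose by 1.22 ± 0.10, 1.84 ± 0.07 and 1.19 ± 0.12, the cross-linking oxidase LOX by 1.26 ± 0.08 and the collagen chaperone SERPINH1 by 1.34 ± 0.09. Among chains, COL5A1 rose by 1.05 ± 0.12 and COL6A1 by 0.98 ± 0.12, COL1A1 (-0.09 ± 0.17) and COL4A1 (0.14 ± 0.09) were not called, and COL5A2 was lower (-0.45 ± 0.09). COL3A1, at -1.92 ± 0.45, was not past the threshold without hypoxia VC 1 or normoxia VC 3, log2 -1.77 to -1.57. COL6A3, at 1.77 ± 0.44, was not past the threshold without hypoxia VC 3, normoxia VC 1, normoxia VC 2 or normoxia VC 3, log2 1.504 to 1.84. The lower members LOXL1 (-0.95 ± 0.24) and SPARC (-0.27 ± 0.08) lost their calls when libraries were left out, LOXL1 without hypoxia VC 2, hypoxia VC 3, normoxia VC 1 or normoxia VC 2, log2 -1.01 to -0.82 and SPARC without hypoxia VC 2, hypoxia VC 3, normoxia VC 1 or normoxia VC 2, log2 -0.27 to -0.22.

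Genes of TGF-beta and BMP signalling were lower in 10 and higher in 3 of 22 cases, with a median of -0.23. ID3, a helix-loop-helix inhibitor that responds to BMP, had 16.5, 14.9 and 16.2 CPM in hypoxia VC, against 63.6, 69.5 and 67.2 CPM in normoxia VC (log2 fold change -2.08 ± 0.12 (SE), adjusted p 4.6e-13). ID2 fell by 1.22 on the log2 scale, the inhibitory SMAD6 fell by 0.95 and the ligand gene TGFB2 fell by 1.18. The ligand GDF15 was at -1.05 ± 0.27 (not past the threshold without any 1 of the 6 libraries, log2 -1.12 to -0.97). SMAD3, a signal transducer, rose by 0.95 ± 0.07, and TGFB1 was at 0.74 ± 0.16 (not past the threshold without hypoxia VC 1, log2 0.66). LTBP2, at 0.51 ± 0.14, was not past the threshold without hypoxia VC 2, hypoxia VC 3, normoxia VC 2 or normoxia VC 3, log2 0.46 to 0.54, and it was no longer called with the replicate number as a block (log2 0.51). Of 13 YAP and TEAD targets, 2 were higher (15.4%) and 3 were lower (23.1%), against 15.4% and 15.9% of protein-coding genes. The matricellular genes CCN1 and CCN2 fell by 0.88 and 1.65 on the log2 scale, and ANKRD1 had 18.8, 20.05 and 21.2 CPM in hypoxia VC, against 135, 119 and 125 CPM in normoxia VC, lower in every hypoxia VC library (log2 fold change -2.66 ± 0.09 (SE), adjusted p 3.6e-19). The receptor kinase AXL rose by 0.59 ± 0.09 and YAP1 itself by 0.44 ± 0.07.

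Notch pathway genes were higher in 6 of 14 cases (42.9%), against 15.4% of protein-coding genes. NOTCH1 had 123, 169 and 155 CPM in hypoxia VC, against 50.4, 45.2 and 51.03 CPM in normoxia VC (log2 fold change 1.61 ± 0.17 (SE), adjusted p 4.0e-07), and NOTCH3 rose by 0.96 ± 0.14. The count was 3 without hypoxia VC 2. The target gene HES1, at 0.60 ± 0.14, was not past the threshold without hypoxia VC 2, log2 0.54, and NOTCH2, at 0.63 ± 0.14, was not past the threshold without hypoxia VC 2, log2 0.53. Mesenchymal markers were higher in 5 and lower in 3 of 13 cases. The repressor of epithelial genes SNAI1 rose by 0.84 ± 0.15 and ZEB2 by 0.51 ± 0.07, and the adhesion gene CDH11 fell by 0.80 on the log2 scale. The higher count was 2 without hypoxia VC 1 or normoxia VC 3 and 3 without hypoxia VC 2, normoxia VC 2 or hypoxia VC 3. Their summed level was 4964 to 5863 CPM in hypoxia VC and 3971 to 4527 CPM in normoxia VC.

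Oxygen is also a substrate of the JmjC and TET demethylases of histones and DNA. Of 21 such genes, 13 were higher and 1 was lower, with a median of 0.50. KDM4B and KDM4C, which act on methylated lysines of histone H3, rose by 1.16 ± 0.10 and 1.11 ± 0.07, KDM7A by 1.02 ± 0.12, PHF8 by 0.95 ± 0.09 and KDM3A by 0.78 ± 0.07. KDM4D, at -1.59 ± 0.43, was not past the threshold without hypoxia VC 1, hypoxia VC 3 or normoxia VC 2, log2 -1.42 to -1.28.

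Clock genes moved in both directions, with 5 of 17 higher (29.4%) and 6 lower (35.3%), against 15.4% and 15.9% of protein-coding genes. The activators NPAS2 and ARNTL rose by 1.25 ± 0.08 and 0.60 ± 0.10, and the nuclear receptors RORA and NR1D1 by 0.87 ± 0.14 and 0.64 ± 0.12. The repressors PER2 and PER3 fell by 0.98 and 1.77 on the log2 scale. PER3 had 6.34, 6.25 and 5.81 CPM in hypoxia VC, against 20.6, 21.8 and 20.4 CPM in normoxia VC, with no overlap. HLF, an output factor, had 0, 1 and 1 counts in hypoxia VC and 12, 15 and 12 counts in normoxia VC, too few for a firm fold.

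Of 24 autophagy and mitophagy genes, 6 were higher (25%) and 2 were lower (8.33%), against background shares of 10.3% and 10.7%. ATG9A, the membrane scramblase of autophagosomes, rose by 1.09 ± 0.09, the kinase ULK2 was lower (-0.67 ± 0.10), and the mitophagy receptor FUNDC1 was at -0.52 ± 0.12 (not past the threshold without normoxia VC 1, log2 -0.43). PINK1 (-0.22 ± 0.10) and BECN1 (-0.18 ± 0.07) were not called. Immediate early genes were higher in 9 and lower in 1 of 29 cases. KLF6 rose by 0.95 ± 0.08, DUSP1, a MAP kinase phosphatase, by 0.58 ± 0.11 and ZFP36, which destabilises inflammatory mRNAs, by 0.57 ± 0.14. EGR2 was at 1.11 ± 0.27 (not past the threshold without hypoxia VC 3 or normoxia VC 1, log2 0.94 to 1.04). FOS (0.43 ± 0.34), EGR1 (-0.50 ± 0.22) and MYC (-0.02 ± 0.09), the genes of the first wave after serum, were not called. DUSP6, the lower member at -0.30 ± 0.08, lost its call without any 1 of the 6 libraries.

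Inflammatory mediators were higher in 7 and lower in 2 of 19 cases, and without hypoxia VC 3 the higher count was 4. The cytokine IL1A had 15.4, 16.5 and 12.7 CPM in hypoxia VC, against 2.36, 3.91 and 3.37 CPM in normoxia VC (log2 fold change 2.20 ± 0.28 (SE), adjusted p 6.0e-07), and IL1B rose by 1.23 ± 0.17. TNFAIP3 and NFKBIA, feedback inhibitors of NF-kappaB, rose by 0.82 ± 0.09 and 0.75 ± 0.09. The neutrophil chemokine CXCL1 was at 1.19 ± 0.29 (not past the threshold without hypoxia VC 3 or normoxia VC 2, log2 1.10 each time). PTGS2, the inducible cyclooxygenase, had 83.6, 95.5 and 92.3 CPM in hypoxia VC, against 189, 198 and 189 CPM in normoxia VC and was lower in every hypoxia VC library (log2 fold change -1.08 ± 0.09 (SE), adjusted p 1.7e-09), as was the monocyte chemokine CCL2 (-0.60 ± 0.09). IL6 rose by 0.63 ± 0.16, and CXCL8, the main neutrophil chemokine, was not called (0.37 ± 0.11).

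Interferon genes (3 of 20 higher, 2 lower) and p53 targets (2 of 18 higher, 1 lower) were close to the background shares of all tested genes. Among protein-coding genes, the shares were 15.4% higher and 15.9% lower. IFIT2 rose by 0.89 ± 0.11 and BST2 by 0.65 ± 0.09. The death receptor TNFRSF10B, which binds the TRAIL ligand, rose by 0.64 ± 0.06, GADD45A fell by 0.97, and CDKN1A (-0.14 ± 0.12) was not called. Sterol and fatty acid synthesis genes were higher in 3 (10%) and lower in 7 (23.3%) of 30 cases, with 4 lower without hypoxia VC 2. INSIG2, which holds the sterol sensor in the endoplasmic reticulum, had 95.2, 112 and 112 CPM in hypoxia VC, against 31.5, 38.6 and 39.7 CPM in normoxia VC (log2 fold change 1.54 ± 0.12 (SE), adjusted p 5.0e-11). The desaturase SCD rose by 1.07 ± 0.07, and HMGCS1, at the entry of the pathway, fell by 0.88 on the log2 scale.

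Genes that start and carry out DNA replication were lower after 4 h in hypoxia. Of 33 cell cycle genes, 18 were lower and 2 were higher, with a median of -0.39. The G1 to S cyclins CCNE1 and CCNE2 fell by 1.11 and 1.83 on the log2 scale, the phosphatase CDC25A fell by 1.18 and the factor E2F2 fell by 2.39. CCNE2 had 2.49, 3.98 and 5.24 CPM in hypoxia VC, against 10.7, 13.1 and 17.5 CPM in normoxia VC, with the groups well apart. All 6 subunits of the MCM helicase, MCM2 to MCM7, were lower, from -0.39 for MCM2 to -0.94 for MCM6. MCM6 had 40.97, 35.4 and 36.3 CPM in hypoxia VC, against 72.8, 69.6 and 74.4 CPM in normoxia VC (log2 fold change -0.94 ± 0.11 (SE), adjusted p 1.4e-07). Of the mitotic genes, CCNB1 (-0.01 ± 0.11), PLK1 (-0.08 ± 0.11), AURKB (0.03 ± 0.16) and CDK1 (-0.15 ± 0.11) were not called. The 2 higher members were BUB1, at 0.43 ± 0.10 (not past the threshold without hypoxia VC 2, log2 0.40), and the cyclin kinase inhibitor CDKN1C, at 0.77 ± 0.18 (not past the threshold without hypoxia VC 1 or normoxia VC 3, log2 0.68 to 0.69). MKI67 was at 0.68 ± 0.23 with an adjusted p of 0.0313. Without replicate 2 of all groups, the lower count was 11.

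RNA of the mitochondrial genome made up 1.88, 1.28 and 1.44% of counts in hypoxia VC, against 3.09, 2.65 and 2.78% in normoxia VC, and no library of one condition reached the other. Of its 13 protein-coding genes, 10 were lower, with a median log2 fold change of -1.12. MT-ND1, a subunit of complex I, had 309, 201 and 230.4 CPM in hypoxia VC, against 1049, 857 and 923 CPM in normoxia VC (log2 fold change -1.93 ± 0.29 (SE), adjusted p 5.3e-05). MT-CO1, the catalytic subunit of cytochrome oxidase, was lower by 0.88 on the log2 scale and MT-CYB by 1.15. MT-ND4, MT-ND4L and MT-ND6 were not called, although their libraries did not overlap. The mitochondrial ribosomal RNAs did not follow. MT-RNR1 was at -0.01 ± 0.13 and MT-RNR2 at -0.08 ± 0.16, not called and with overlapping libraries, in libraries that had been depleted of ribosomal RNA. Over all 32 tested mitochondrial genes, 12 were lower, and this count was 5 without normoxia VC 1, hypoxia VC 2 or hypoxia VC 3 and 6 without normoxia VC 3.

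**Figure D4:**
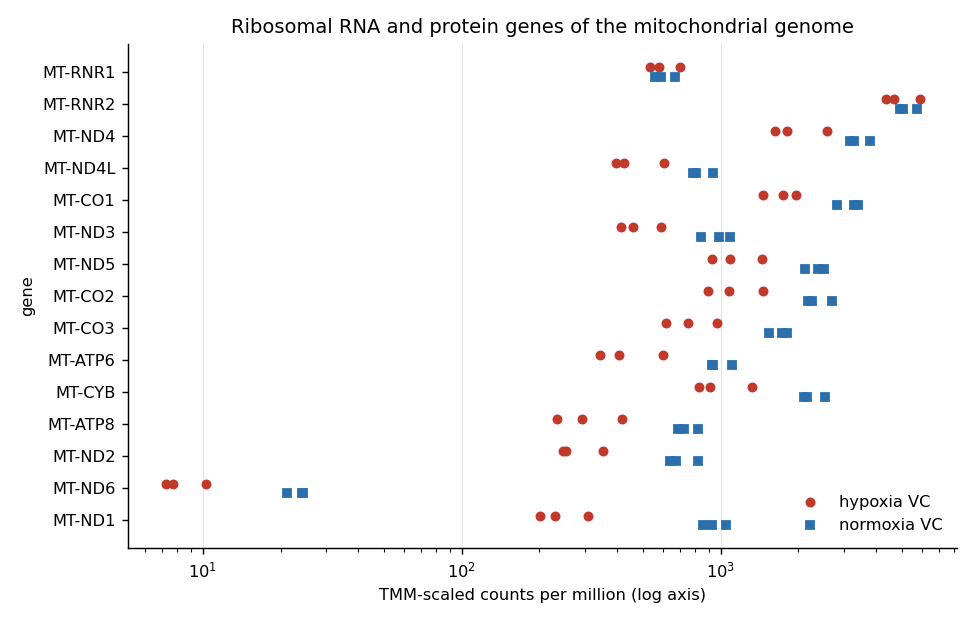
TMM-scaled CPM on a log axis for the 2 ribosomal RNA genes and 13 protein genes of the mitochondrial genome in 3 hypoxia VC libraries (red circles) and 3 normoxia VC libraries (blue squares), from the smallest fall at the top to the largest. Circles and squares overlap for MT-RNR1 and MT-RNR2 and lie apart for the protein genes, widest for MT-ND1 at a log2 fold change of -1.93.

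The nuclear genes of oxidative phosphorylation were largely without calls. Of 84 tested, 9 were lower and 1 was higher. The lower share was close to the 10.7% of all tested genes and below the 15.9% of protein-coding genes. The lower count was 5 without normoxia VC 1 and 4 without hypoxia VC 2. ATP5F1C (-0.54 ± 0.08) and UQCRC2 (-0.45 ± 0.07) were among the lower members. NDUFA4L2, a HIF target that replaces a cytochrome oxidase subunit, was the higher member at 0.78 ± 0.20 and lost its call without any 1 of the 6 libraries. Cytosolic ribosomal proteins gave 3 lower calls among 82, with a median of 0.04. RPL7, from a family rich in copies, was among them and lost its call without hypoxia VC 2. Replication-dependent histones gave 1 lower call among 40, HIST1H1C at -0.57 ± 0.14, not past the threshold without hypoxia VC 2, hypoxia VC 3 or normoxia VC 2, log2 -0.54 to -0.51. Small nucleolar RNA host genes were lower in 10 of 27 cases. SNHG17, SNHG15, SNHG12 and SNHG9 fell by 1.08, 1.00, 0.94 and 1.51 on the log2 scale, and the count was 6 without hypoxia VC 3. ZNF-named zinc finger genes were higher in 70 (14.6%) and lower in 30 (6.28%) of 478 cases, with 16 lower without hypoxia VC 2. The higher share was close to the 15.4% of protein-coding genes.

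EMP2, the tetraspan protein varied in the other lines of the series, was lower in hypoxia. It had 36.6, 33.4 and 32.7 CPM in hypoxia VC, against 49.3, 51.99 and 51.03 CPM in normoxia VC, without overlap (log2 fold change -0.57 ± 0.09 (SE), adjusted p 6.8e-06). Of its family and of caveolar genes, 2 of 7 were higher, the related PMP22 (0.69 ± 0.07) and the caveolar coat protein CAV1 (0.95 ± 0.07), and EMP1 (0.00 ± 0.06) and EMP3 (0.09 ± 0.09) were not called. Of the RPE markers, 3 of 14 were lower (21.4%), against 15.9% of protein-coding genes. They were the melanin enzymes TYR (-1.03 ± 0.17) and TYRP1 (-0.83 ± 0.20, not past the threshold without hypoxia VC 2, normoxia VC 1 or normoxia VC 3, log2 -0.78 to -0.73), and GULP1 (-0.83 ± 0.15), an adaptor of engulfment. The matrix protein EFEMP1 was higher (0.45 ± 0.06). The transcription factors MITF (-0.22 ± 0.08), OTX2 (-0.05 ± 0.08) and PAX6 (0.11 ± 0.09) were not called. Among long noncoding RNAs linked to hypoxia, 3 of 15 were higher (20%) and 1 was lower (6.67%). Of all long noncoding RNAs tested, 2.44% were higher and 3.42% were lower. Beside HIF1A-AS3, LUCAT1 rose by 1.22 ± 0.10 and UCA1 by 0.82 ± 0.10, and the paraspeckle scaffold NEAT1 fell by 0.72 on the log2 scale. MALAT1 (-0.34 ± 0.23) was not called.

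Gene size differed between the directions. Protein-coding genes were kept where the mean CPM of hypoxia VC and of normoxia VC added up to at least 2. Among these, the median genomic span was 53.9 kb for 2320 higher genes, 34.8 kb for 2369 lower genes and 34.8 kb for all 12505. The median exonic length was 6.82 kb for higher genes, 5.22 kb for lower genes and 5.54 kb for all. These are descriptions over genes, which are not replicates.

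WT cells, the parent of the VC line, were compared through the difference of the responses (hypoxia over normoxia in VC minus the same in WT), tested in the same fit. The 2 comparisons share no library. In WT, 2452 genes were higher (9.86%) and 2798 lower (11.2%). Of the genes higher in VC, 1344 were also higher in WT, which is 52.4% of the VC and 54.8% of the WT genes. Of the genes lower in VC, 1442 were also lower in WT, 54.1% of the VC and 51.5% of the WT genes. Opposite calls were rare, with 74 genes higher in VC and lower in WT and 72 genes lower in VC and higher in WT. The response was more positive in VC than in WT for 1117 genes (4.49%) and more negative for 879 (3.53%).

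Of 56 HIF targets tested, 47 were higher in VC and 47 in WT, with median log2 fold changes of 1.24 in VC and 1.51 in WT. The difference of the responses was negative for 18 and positive for 4 of them. NDRG1 had a log2 fold change of 4.25 in VC and 4.86 in WT, a difference of -0.61 ± 0.12 (adjusted p 3.1e-04). VEGFA had 1.36 in VC and 1.56 in WT, and the difference of -0.20 ± 0.12 was not called (adjusted p 0.381). In glycolysis, 20 genes were higher in VC and 20 in WT, and the difference was negative for 12. HIF1A fell in both lines, by 1.25 in VC and 1.09 in WT on the log2 scale (difference -0.16 ± 0.11, adjusted p 0.432).

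Among genes with at least 10 CPM, HMOX1 gave the largest positive difference. It averaged 1989 ± 37.8 CPM in hypoxia VC and 163 ± 12.4 CPM in normoxia VC, against 147 ± 11.8 CPM in hypoxia WT and 117 ± 9.75 CPM in normoxia WT (SD, n = 3 each). In normoxia the lines were near each other, and in hypoxia VC stood alone (difference 3.29 ± 0.17, adjusted p 2.7e-12). Other antioxidant genes differed in sign. GCLM averaged 79.997 ± 6.05 CPM in hypoxia VC and 43.4 ± 2.84 CPM in normoxia VC, against 12.6 ± 0.965 CPM in hypoxia WT and 28.5 ± 2.84 CPM in normoxia WT. It rose in VC (0.88) and fell in WT (-1.18), with a difference of 2.07 ± 0.14. ME1 rose in VC (0.93) and fell in WT (-0.73). SLC7A11 was not called in VC (-0.40) and fell in WT (-2.99), with a difference of 2.59 ± 0.23. Over the list, 13 of 24 differences were positive and 1 was negative. TFRC fell in both lines, by 2.35 in VC and 4.20 in WT on the log2 scale (difference 1.86 ± 0.12).

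For the inflammatory mediators, 8 of 19 differences were positive, IL1A among them (log2 fold change 2.20 in VC and 0.14 in WT). Of the DNA replication and cell cycle genes, 18 were lower in VC and 11 in WT, 2 were higher in VC and 12 in WT, and the difference was negative for 10 and positive for 1. Of 40 replication-dependent histones, 7 had a negative difference, and 6 were higher in WT. The difference was positive for 5 and negative for 1 of 14 heat shock genes, and positive for 8 and negative for 1 of 24 unfolded protein genes. ANKRD1 averaged 19.999 ± 1.2003 CPM in hypoxia VC and 126 ± 7.996 CPM in normoxia VC, against 47.6 ± 4.14 CPM in hypoxia WT and 65.6 ± 6.25 CPM in normoxia WT, a steeper fall in VC (difference -2.20 ± 0.12). The mitochondrially encoded protein genes fell in both lines, 10 of 13 in VC and 12 of 13 in WT.

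**Figure D5:**
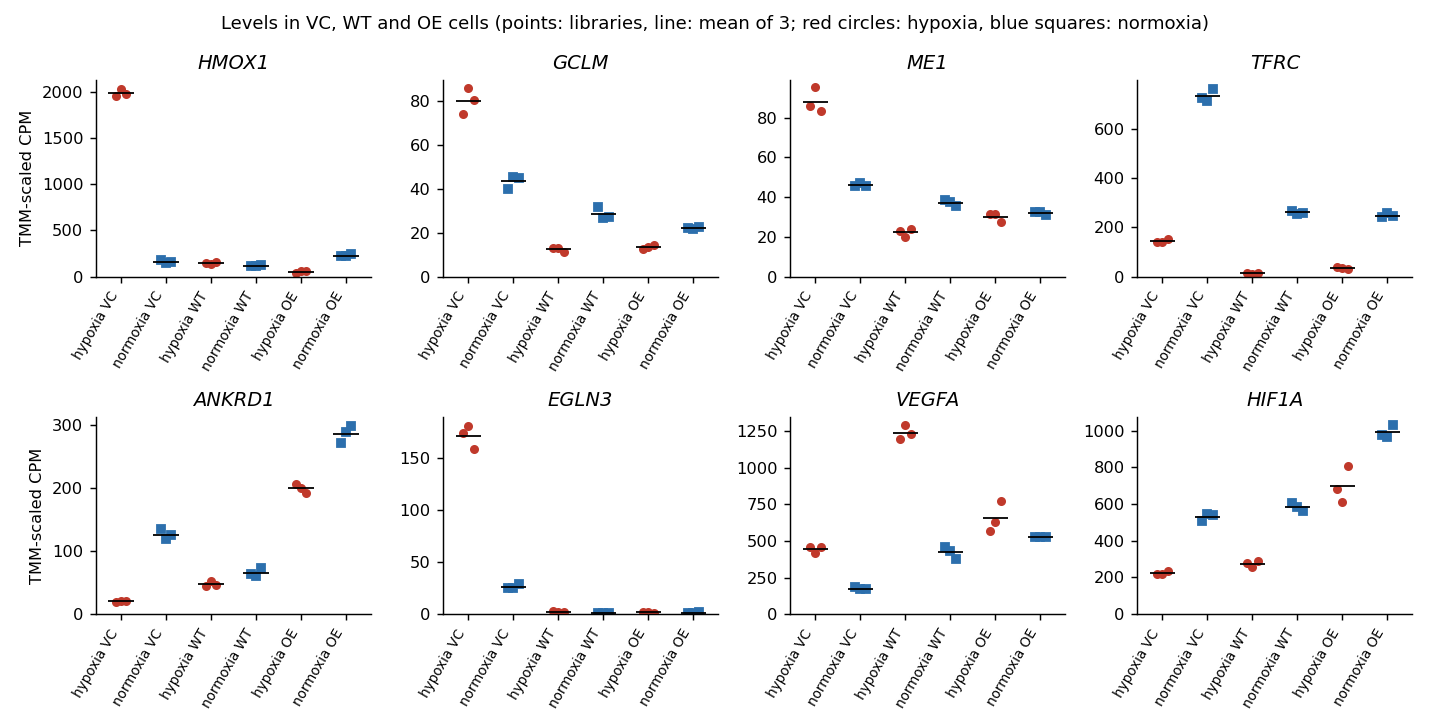
TMM-scaled CPM of 8 genes in each library of VC, WT and OE cells, hypoxia as red circles and normoxia as blue squares with the mean of 3 as a line, each panel on its own axis from 0. HMOX1 is at 1989 CPM in hypoxia VC only, GCLM and ME1 rise in VC and are lower in hypoxia WT than in normoxia WT, with GCLM also lower in hypoxia OE and ME1 overlapping there, and TFRC and HIF1A are lower in hypoxia in all of these lines.

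OE cells carry EMP2 on the same kind of retroviral construct. Against OE, the VC response was more positive for 676 genes (2.72%) and more negative for 601 (2.42%). HMOX1 averaged 53.3 ± 12.003 CPM in hypoxia OE and 229 ± 10.6 CPM in normoxia OE, and so fell there (log2 -2.10) where it rose in VC, a difference of 5.71 ± 0.18 (adjusted p 1.3e-16). EGLN3 had a log2 fold change of 2.70 in VC and 0.24 in OE (difference 2.46 ± 0.33). TREM1 had 4.01 in VC and 0.98 in OE (difference 3.03 ± 0.56), and TNC, a matrix glycoprotein, differed by 2.60 ± 0.35. EGLN3, TREM1 and TNC were low in OE, and they were low in WT too. Counts in hypoxia OE were 21, 31 and 16 for EGLN3, 6, 17 and 12 for TREM1 and 9, 9 and 16 for TNC. In normoxia OE they were 20, 21 and 22, 5, 6 and 8, and 34, 32 and 26. EGLN3 had 39, 32 and 31 counts in hypoxia WT and 13, 18 and 9 in normoxia WT. TREM1 had 31, 47 and 28 in hypoxia WT and 0, 4 and 2 in normoxia WT. TNC had 21, 13 and 31 in hypoxia WT and 29, 43 and 28 in normoxia WT. ID3 had -2.08 in VC and 0.72 in OE (difference -2.80 ± 0.17). VEGFA had 1.36 in VC and 0.32 in OE, from a normoxia level of 174 ± 7.14 CPM in VC and 528 ± 2.22 CPM in OE (difference 1.04 ± 0.12, adjusted p 6.8e-07). In hypoxia OE 1, 64.9% of unique reads lay in genes, against 90.0 to 91.5% in the other libraries, and without it 1042 genes in place of 601 were more negative in VC.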

How the data were processed

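Total RNA of ARPE-19 cells was depleted of ribosomal RNA and sequenced as single reads of 50 bases. The authors demultiplexed with bcl2fastq 2.17 and mapped and counted with STAR on GRCh38, and the files head the annotation as Ensembl. Whether reads were counted by strand is not given in the sources used here. The deposited counts are raw reads per gene, 24 columns. The deposited normalized values are a signal, those counts divided by the authors' TMM-scaled library size (edgeR's CPM form). With a factor per library taken from the deposited counts, whole reads were recovered for 100.0% of the values above 0 within 0.01 reads. Each equalled the deposited count. The alignment report of the authors gave reads mapped per library, used for depth only.

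Counts were tested with edgeR 4.0.16 in R 4.3.3 (TMM, robust quasi-likelihood fit of 8 groups, 16 residual degrees of freedom) for genes with at least 10 counts over the 24 libraries, with Benjamini-Hochberg adjustment and calls at adjusted p under 0.01. Contrasts were hypoxia VC minus normoxia VC and its difference from the same contrast in WT and in OE. Alternatives were RLE scaling, other filters and thresholds, leaving out ribosomal RNA and mitochondrial genes, fits with only the libraries compared, a replicate block, left-out libraries, DESeq2 1.42.0 and limma 3.58.1 (pseudocount 0.5). Replicate numbers come from the labels. Same-numbered VC libraries deviated together (r 0.106 to 0.318 in 3 pairs, against -0.210 to 0.0879 for other numbers), so the block was run as a paired fit. Gene positions are from GENCODE release 44 on GRCh38 and promoters from RefSeq GRCh38.p14.

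Named genes were EMP2, HIF1A, VEGFA and VHL, the 12 largest changes in each direction among called genes with at least 10 CPM and no overlap between groups, all HIF subunits and oxygen sensors, up to 5 called members of each other list with the largest change and those against its majority, and the 8 largest differences in each direction. Further list members were named after their values were seen. The members and lists were chosen with earlier results of these data known. Of 229 genes named by the rule, 91 overlap a gene on the opposite strand, so their counts may hold reads of that partner. EMP2 knockdown libraries were not compared. Some genes that the rule names are not reported here.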

Additional observations from a re-analysis of the deposited data

Results flagged for a closer look

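The results below were picked out because the response to hypoxia differed between lines in edgeR's test of the difference itself, adjusted p under 0.01 over all tested genes. Groups of 3 libraries are too small for the check on single outlying values. The differences from WT and those from OE share the VC libraries, so a gene named under both is not 2 separate observations. Each value is the log2 fold change in VC minus that in the other line. The cause of these differences was not tested.

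HMOX1 stood at 3.29 against WT and 5.71 against OE. SLC7A11 differed from WT by 2.59 (VC -0.40, WT -2.99). B3GNT5, a glycosyltransferase of glycolipids, differed by 2.86 (VC 1.43, WT -1.43). GRPR, a receptor of bombesin-like peptides, differed by 2.64 (VC 0.87, WT -1.77). PAQR3, a Golgi regulator of RAF signalling, differed by 2.44 (VC 1.19, WT -1.25). TRIB3, a stress pseudokinase, differed by 2.10 (VC 0.79, WT -1.31). MICB, CLIC2, MLKL and KIAA1549L, all among the 12 largest rises in VC at 10 CPM or more, rose more in VC than in WT by 2.02, 1.64, 1.40 and 1.34. EPAS1 differed by 0.59 (VC -0.03, WT -0.61). SOX7, an endothelial and endodermal transcription factor, differed by 3.20 (VC 0.99, WT -2.21), but it was not past the threshold without hypoxia VC 2, hypoxia WT 2, hypoxia WT 3, normoxia VC 2, normoxia WT 2 or normoxia WT 3, log2 2.69 to 3.14, and it reached 5.95 without hypoxia WT 1. GRPR stood at 3.31 without that library. SOX7 averaged 0.04 CPM in hypoxia WT and 0.24 CPM in normoxia WT, and GRPR 0.22 CPM in hypoxia WT and 0.76 CPM in normoxia WT. B3GNT5 had 9, 7 and 11 counts in hypoxia WT and 29, 33 and 22 in normoxia WT. MICB had 11, 12 and 14 counts in hypoxia WT and 4, 8 and 8 in normoxia WT. The differences for SOX7, GRPR, B3GNT5 and MICB thus rest on low levels in WT.

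Negative differences from WT were found for SEMA6A, an axon guidance ligand, at -3.37 (VC -1.86, WT 1.51), NOG, the BMP antagonist noggin, at -3.19 (VC -0.16, WT 3.03), and ACKR3, a decoy receptor of the chemokine CXCL12, at -2.48 (VC -0.89, WT 1.59). LINC02009 differed by -2.75 (VC -3.85, WT -1.10), RGS7BP by -1.98 (VC -3.28, WT -1.30), GBP4 by -2.11 (VC -2.60, WT -0.50), WNT2B by -1.76 (VC -2.56, WT -0.79), ALPK2 by -1.59 (VC -2.43, WT -0.84), LINC00968 by -1.49 (VC -3.24, WT -1.76) and ANKRD1 by -2.20 (VC -2.66, WT -0.46). NDRG1 rose less in VC, by -0.61 (VC 4.25, WT 4.86), and ARNT2 stood at -0.75 (VC -1.38, WT -0.63). The histone gene HIST1H2BD differed by -2.85 (VC 0.10, WT 2.95) and the cadherin FAT3 by -2.73 (VC -1.55, WT 1.17). HIST1H2BD was already at 55.8 to 64.5 CPM in normoxia VC, against 1.48 to 2.65 CPM in normoxia WT and 14.5 to 15.8 CPM in hypoxia WT. TRIM9 differed by -2.62 (VC 1.69, WT 4.31), was not past the threshold without hypoxia WT 2, normoxia WT 1 or normoxia WT 2, log2 -2.51 to -2.06, stood at -3.57 without normoxia WT 3, and limma on the normalized values gave -0.04. ADAMTS2, a procollagen peptidase with 1, 0 and 2 counts in hypoxia VC and 15, 16 and 7 counts in normoxia VC, too few for a firm fold, differed by -2.80 (VC -3.42, WT -0.62), was not past the threshold without hypoxia VC 1 or hypoxia VC 2, log2 -2.79 to -2.20, and stood at -0.50 in limma and at -3.71 without hypoxia VC 3.

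Against OE, TNFSF15, a TNF family cytokine, differed by 5.75 (VC 2.73, OE -3.02). It had 659, 855 and 635 counts in hypoxia VC and 112, 110 and 116 in normoxia VC, against 3, 2 and 1 counts in hypoxia OE and 25, 30 and 2 in normoxia OE, too few in OE for a firm fold, and it was not past the threshold without replicate 1 or replicate 2 of all groups (6.12 and 5.04). MICB differed by 3.81 (VC 3.08, OE -0.72), TREM1 by 3.03 (VC 4.01, OE 0.98) and the matrix glycoprotein TNC by 2.60 (VC 1.31, OE -1.29). EGLN3 differed by 2.46 (VC 2.70, OE 0.24) and MT1F by 2.34 (VC 1.76, OE -0.59). MICB had 2, 2 and 3 counts in hypoxia OE and 4, 7 and 2 in normoxia OE, too few for a firm fold. TREM1 had 6, 17 and 12 counts in hypoxia OE and 5, 6 and 8 in normoxia OE. TNC had 9, 9 and 16 against 34, 32 and 26, and EGLN3 21, 31 and 16 against 20, 21 and 22. The differences for MICB, TREM1, TNC and EGLN3 rest on low levels in OE. These genes and TNFSF15 were low in WT as well. TNFSF15 had 5, 11 and 5 counts in hypoxia WT and 5, 7 and 2 in normoxia WT. Negative differences were found for LINC02009 at -3.07 (VC -3.85, OE -0.78), PPARGC1A, a coactivator of mitochondrial biogenesis, at -3.06 (VC -1.49, OE 1.57), the BMP-responsive inhibitors ID4 at -2.97 (VC -3.87, OE -0.91) and ID3 at -2.80 (VC -2.08, OE 0.72), RGS7BP at -2.61 (VC -3.28, OE -0.67) and the histone gene HIST1H4H at -2.50 (VC 0.07, OE 2.57). ADAMTS2 differed by -2.88 (VC -3.42, OE -0.54), was not past the threshold without hypoxia VC 1 or hypoxia VC 2, log2 -2.88 to -2.28, and stood at -3.80 without hypoxia VC 3 and at -0.57 in limma. THBD, the anticoagulant thrombomodulin, differed by -2.50 (VC -1.13, OE 1.37), was not past the threshold without hypoxia OE 3, normoxia OE 1, normoxia OE 2 or normoxia VC 2, log2 -2.47 to -2.02, and stood at -3.18 without normoxia OE 3.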

How the results depend on the processing

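No called fold change or difference of a named gene changed sign under any alternative run. The balance of VC calls and the order of the promoter shares did turn, as given here. The VC response gave 2564 higher and 2664 lower genes. It gave 2644 higher and 2758 lower with the replicate number as a block, 3545 higher and 3454 lower from the 6 VC libraries alone, and 4010 higher and 3973 lower with both. RLE scaling gave 2678 higher and 2643 lower, DESeq2 2913 higher and 2833 lower, and limma on the normalized values 2885 higher and 2868 lower. The reads recovered from the normalized values, an alternative chosen after seeing the data, gave the same counts as the deposited ones. Each recovered read equals its deposited count, so this outcome was fixed in advance and is no check on the calls. Leaving out libraries gave 1564 to 2669 higher and 1146 to 2656 lower genes, with the lowest counts without replicate 2 of all groups, where 51.7% of the calls were kept. Without replicate 3 of all groups 68.5% were kept, and without any 1 of the 6 VC libraries 78.5 to 84.4%.

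For VC minus WT, 1117 higher and 879 lower genes became 1716 higher and 1401 lower at adjusted p under 0.05, 1826 higher and 1330 lower from the 12 libraries compared alone, 1219 higher and 940 lower with the replicate number as a block and 2250 higher and 1628 lower with the block and those libraries alone. Leaving out libraries gave 307 to 1216 and 221 to 891. For VC minus OE, 676 higher and 601 lower genes became 1179 higher and 1067 lower at adjusted p under 0.05, 337 higher and 372 lower from the libraries compared alone, 748 higher and 637 lower with the block and 366 higher and 358 lower with the block and those libraries alone. With no filter on low counts 1080 were lower, and leaving out libraries gave 245 to 883 and 148 to 1042, with 1042 lower without hypoxia OE replicate 1. The cause of these shifts was not tested, beyond the smaller number of libraries where some were left out. Same-numbered libraries did not deviate together in every pair across lines (lowest r -0.0757 for VC with WT and -0.102 for VC with OE), so the block there uses a shared number only.

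With only the 250 bases before the start, the HIF core was present in 57.5% of promoters of higher genes, 56.5% of those of lower genes and 54.2% of all, so that the order of higher and lower genes turned. Of 240 gene results, 236 kept their side of the threshold with DESeq2, 239 with RLE scaling, 228 with limma and 238 with the block, and LTBP2 was not among the last. Without replicate 2 of all groups 167 kept it. Genes with few counts limit the fold changes, and 3 libraries per group limit the calls.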
